A study of Arabidopsis thaliana with 3 samples.

Results

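The TOPLESS corepressor family of Arabidopsis thaliana comprises 5 genes, TOPLESS (TPL, AT1G15750) and the TOPLESS-RELATED genes TPR1 (AT1G80490), TPR2 (AT3G16830), TPR3 (AT5G27030) and TPR4 (AT3G15880, listed as WSIP2). They were taken by locus from 27444 nuclear protein-coding genes. Their occupancy by AtSDR4L, an Arabidopsis transcriptional regulator, was read from chromatin immunoprecipitation and sequencing (ChIP-seq) of whole seedlings. All 3 ChIPs came from the AtSDR4L-HA line, whose tagged protein is induced by β-estradiol, and all used an anti-HA antibody. The induced group held 2 biological replicates, whose medium contained β-estradiol at 1 µM. The control was 1 ChIP from seedlings of the same line on medium without it. Every seedling was harvested 4 days after imbibition, after 3 days of stratification and growth at 22 °C in 16 h light and 8 h dark. No source used here gives the promoter of the transgene or the genetic background. Whole seedlings mix all tissues, and peak lists carry no expression values that could be set against tissue markers.

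TOPLESS proteins are corepressors of the Groucho/Tup1 type. They do not bind DNA by themselves but are brought to genes by transcription factors or adaptors that carry a short repression motif called EAR, and they work with histone deacetylases. Aux/IAA proteins recruit them in auxin signalling and NINJA links them to JAZ proteins in jasmonate signalling, and TPL is named after a mutant whose embryonic shoot is replaced by a root. The genes themselves are the subject here, as places where AtSDR4L-HA was or was not found.

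Peaks of AtSDR4L-HA lay at the ends of all 5 genes in both induced replicates, and at 4 of them both replicates had the peak at the same place. TPL, TPR1 and TPR3 had it just outside the gene end with the higher coordinate and TPR2 outside the end with the lower coordinate. TPR4 differed: its peaks lay at opposite ends of the gene in the 2 replicates. A peak was counted at a gene when its summit, the position of highest enrichment, lay in the gene body or up to 2000 bp outside either end. Fold enrichment is the authors' value at the summit over the uninduced control. The genes were chosen by locus after peaks and folds of these same lists had been seen, so the counts and values below are a description and carry no test.

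In replicate 1, 5 of the 5 genes had a peak, where 44.0% of all coding genes had one by the same window. In replicate 2, 5 of 5 had a peak, against 17.9% of all coding genes. All 5 had a peak in both lists, against 12.6%. The authors' deposited table of matched regions, which ranks by irreproducible discovery rate (IDR) how repeatably the 2 lists found a region, had a region at 4 of the 5 genes, against 9.67% of all coding genes. At an IDR of at most 0.05 it had 3 of the 5, TPL, TPR1 and TPR3, against 0.805%. These 3 also had the matched summit within 200 bp outside a gene end. That was so for 1.61% of all coding genes over every matched region and for 0.157% at an IDR of at most 0.05. A window that follows the gene length gives long genes more room, and the share for all genes was not adjusted for length.

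TPR3 had the most repeatable region of the family. Its peak was at chr5:9515492-9515929 (1-based, TAIR10) in replicate 1, with a fold of 2.57, and at chr5:9515504-9515870 in replicate 2, with a fold of 2.07. The mean was 2.32 ± 0.358 (SD, n = 2). The summits were 12 bp apart and the replicate 2 peak lay wholly within that of replicate 1. The −log10 q was 81.1 in replicate 1, which placed the peak at rank 62 of 9811 nuclear peaks, and 44.8 in replicate 2, at rank 154 of 3423. The IDR in the authors' deposited table was 0.00175, at rank 21 of 1784 regions. This was the single peak of TPR3 in the window in each list. It stood out more by q than by fold, where it was at rank 1306 in replicate 1 and 739 in replicate 2.

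TPR1 had the most even values between replicates. Its region lay at chr1:30267020-30268020 in replicate 1, with a fold of 2.17 and a −log10 q of 28.6. In replicate 2 it lay at chr1:30267106-30267546, with a fold of 2.24 and a −log10 q of 34.7. The mean was 2.203 ± 0.0534 (SD, n = 2), the summits were 10 bp apart and the IDR in the authors' deposited table was 0.0291. TPR1 was the only one of the 4 matched genes with the higher fold in replicate 2, an order seen in 390 (21.9%) of all 1784 matched regions. The replicate 1 peak was 1001 bp wide and extended away from the gene, so that 44.1% of it was covered by the 441 bp peak of replicate 2.

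TPL had a broader region with 2 summits in each replicate. It lay at chr1:5420909-5421762 in replicate 1 and at chr1:5420975-5421698 in replicate 2. At the summit with the higher −log10 q, replicate 1 had a fold of 2.57 and replicate 2 had 1.75. Their mean was 2.16 ± 0.578 (SD, n = 2). The other summit, farther from the gene, had 2.41 and 1.79. The summits of higher −log10 q in the 2 replicates were 24 bp apart. The −log10 q was 52.9 in replicate 1 and 15.3 in replicate 2, and the IDR in the authors' deposited table was 0.0322. Within the replicate 2 list the fold was near the middle, at rank 1519 of 3423 nuclear peaks, while in replicate 1 it was at rank 1309 of 9811.

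TPR2 had the highest fold of the 4 matched genes in replicate 1 and the lowest in replicate 2. The peak was at chr3:5730595-5731511 with a fold of 3.10 and a −log10 q of 58.7 in replicate 1. In replicate 2 it was at chr3:5730906-5731483 with a fold of 1.68 and a −log10 q of 8.18. The mean was 2.39 ± 1.00 (SD, n = 2) and the IDR in the authors' deposited table was 0.155, above the limit of 0.05. The summits were 41 bp apart, close to the median of 44 bp over all matched regions, while the 10 to 24 bp of the other 3 genes were nearer the 15 bp median of regions at an IDR of at most 0.05.

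TPR4 had no matched region. Replicate 1 had a peak with a fold of 2.53 at chr3:5371797-5372808, with its main summit inside the gene within 200 bp of the end with the higher coordinate. A second replicate 1 peak, at chr3:5373514-5373845, lay between 1000 and 2000 bp beyond that end with a fold of 1.58. Replicate 2 had neither in its list. Its one peak, at chr3:5364120-5364431 with a fold of 1.77 and a −log10 q of 7.19, lay within 200 bp of the other end, where TPR4 overlaps its neighbour AT3G15870, and its summit was inside both genes. That the 2 lists both name TPR4 is therefore not a repeat of one site. A list shows only regions past the caller's limit (q below 0.1), so enrichment below it at either end is not known.

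**Figure D1:**
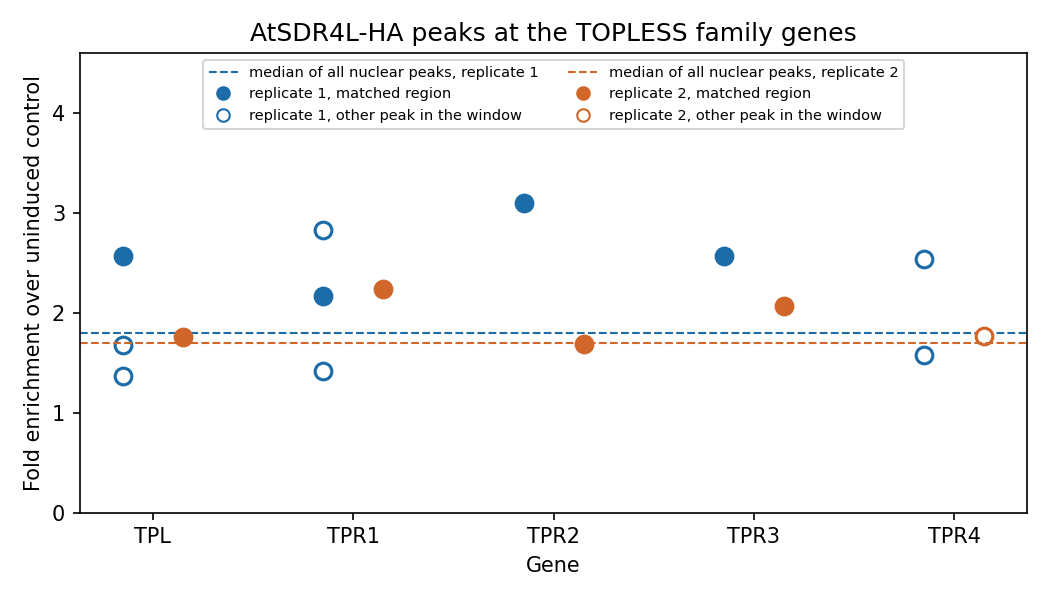
Fold enrichment over the uninduced control (vertical axis, linear) of every peak whose summit lay in the window of each family gene (horizontal axis), with replicate 1 in blue and replicate 2 in orange. Filled points are peaks in a matched region, open points are other peaks, and dashed lines are the medians of all nuclear peaks (1.80 in replicate 1 and 1.699 in replicate 2); TPR4 has open points only, and the TPR1 pair lies closest together.

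**Figure D2:**
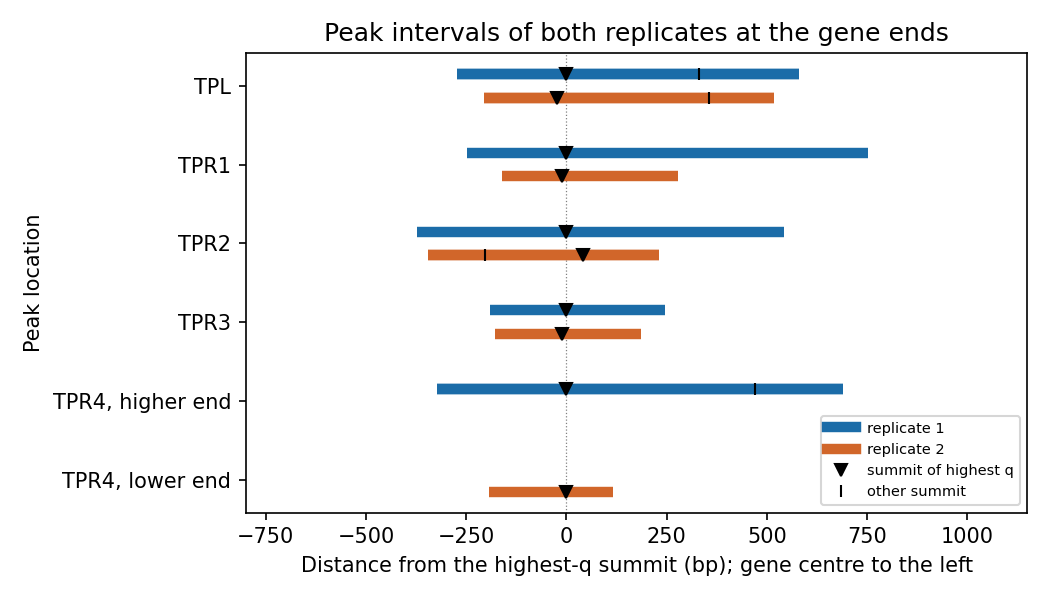
Peak intervals (bars) of replicate 1 in blue and replicate 2 in orange, turned so that the centre of the gene lies to the left. They are drawn by distance in bp from the summit of highest −log10 q of the first replicate present. Triangles mark the summit of highest −log10 q (labelled highest q in the figure) and ticks other summits. The triangles of both replicates nearly coincide at TPL, TPR1, TPR2 and TPR3, while TPR4 has replicate 1 at one end and replicate 2 at the other.

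The 4 matched genes could not be put in an order of occupancy that both replicates share. In replicate 1 the folds ran from TPR2 through TPR3 and TPL, which were equal at 2.57, to TPR1. In replicate 2 they ran from TPR1 through TPR3 and TPL to TPR2. The means, 2.16 to 2.39, lay closer together than the SDs of TPL, TPR2 and TPR3, though not that of TPR1 (0.0534). The SDs also hold a shift between the lists, whose median ratio of replicate 1 to replicate 2 fold was 1.21 over all matched regions. They therefore do not measure the uncertainty of a difference between genes within a list. All 4 folds in replicate 1 were above the median of 1.80 for all nuclear peaks of that list. In replicate 2 the median was 1.699, with TPR1 and TPR3 well above it, TPL slightly above it and TPR2 just below it.

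The folds of the family were moderate among repeatable regions. For regions that the authors' deposited table put at an IDR of at most 0.05, the median of replicate 1 was 3.61 and that of replicate 2 was 2.67, and TPL, TPR1 and TPR3 were below both. Over all 1784 matched regions the medians were 2.24 and 1.79. By mean fold the 4 genes held ranks 557 (TPR2), 622 (TPR3), 729 (TPR1) and 778 (TPL) among these regions. By IDR in the authors' deposited table their order was another, with TPR3 at rank 21, TPR1 at 122, TPL at 131 and TPR2 at 426.

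**Figure D3:**
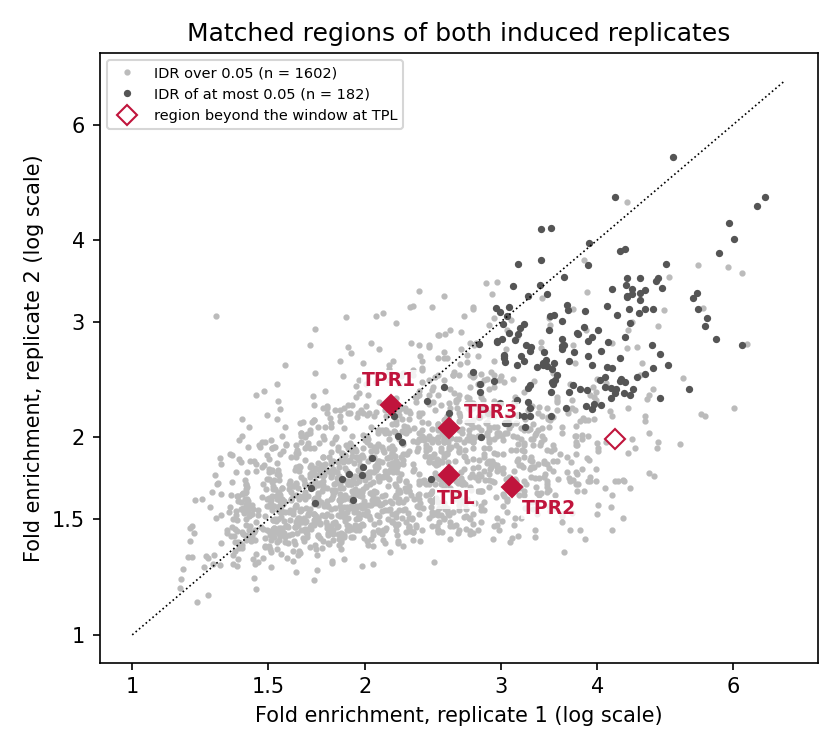
Fold enrichment of the 1784 matched regions in replicate 1 (horizontal axis) and replicate 2 (vertical axis), both on log scales, with the dotted line marking equal folds. Dark points are the 182 regions at an IDR of at most 0.05, and red diamonds are the family genes; TPR1 lies just above the line and the other 3 below it, and the open diamond is a region beyond the window at TPL.

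**Figure D4:**
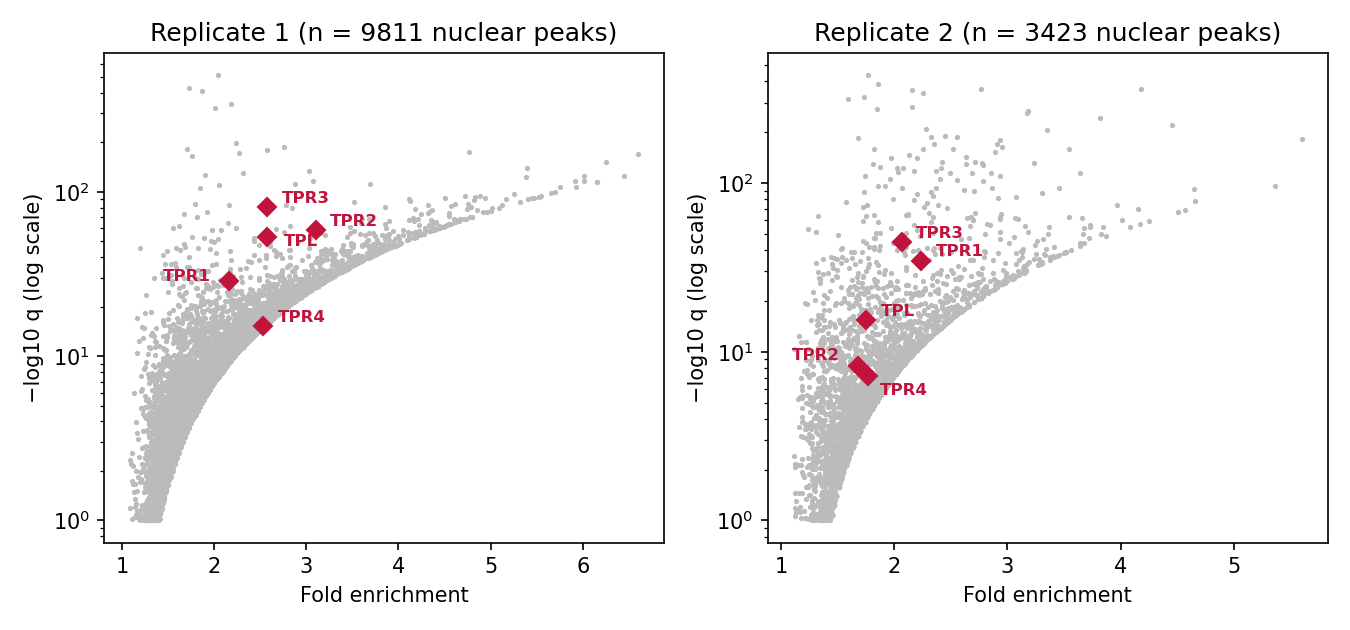
Fold enrichment (horizontal axis) and −log10 q (vertical axis, log scale) of all nuclear peaks of replicate 1 (left) and replicate 2 (right). The peak of highest −log10 q of each family gene is in red. TPR3 has the highest −log10 q of the family in both panels, 81.1 and 44.8, without having the highest fold in either.

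Replicate 1 had 10 peaks in the windows of the 5 genes and replicate 2 had 5. The replicate 1 peaks with no counterpart in replicate 2 included 2 at TPL. The first, at chr1:5414689-5415198, had a fold of 1.36 and lay at the opposite end from the matched region, where TPL overlaps AT1G15740. The second, at chr1:5422225-5422472, had a fold of 1.67 and lay between 1000 and 2000 bp beyond the matched end. TPR1 also had 2 such peaks. The peak at chr1:30268603-30268917, between 1000 and 2000 bp beyond the matched end, had a fold of 2.83, above the 2.17 of the matched region. The peak at chr1:30260536-30260858 had a fold of 1.42, and its summit lay inside the neighbouring gene PTAC17. In all, replicate 1 listed 9811 nuclear peaks and replicate 2 listed 3423, so a peak without a counterpart was common outside the family too.

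The limit of 2000 bp left out regions close to 2 of the genes. Beyond TPL, between 2000 and 3000 bp from its end, both replicates had a peak at chr1:5423064-5423908 and chr1:5423192-5423919, where the folds were 4.22 and 1.99. The authors' deposited table gave this region an IDR of 0.277. In replicate 1 this fold was higher than that of any peak inside the window of a family gene. Beyond TPR1, replicate 1 had a peak at chr1:30269160-30270187 with summits of 1.90 and 2.63, and one on the other side at chr1:30257759-30258030 with 2.07, whose summit lay inside AT1G80470. The peaks between 1000 and 2000 bp outside an end were the 1.67 at TPL, the 2.83 at TPR1 and the 1.58 at TPR4 given above.

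On the side of the matched region, the next coding gene was over 3000 bp away at TPL (AT1G15757) and TPR1 (AT1G80500), over 4000 bp away at TPR3 (AGL101) and between 2000 and 3000 bp away at TPR2 (AT3G16820). The TPR2 region lay within 2000 bp of AT3G16820 as well, so it counted for both genes. On the other side the family genes had close neighbours. TPL overlapped AT1G15740, TPR3 overlapped AT5G27020 and TPR4 overlapped AT3G15870, while TPR1 and TPR2 had PTAC17 and AT3G16840 within 200 bp. The upper neighbour of TPR4 was AT3G15890, between 1000 and 2000 bp away. Long non-coding RNA genes held the matched summits at TPR2 (AT3G03375) and TPR3 (AT5G04345). This was 2 of 4 family regions, where 69 of 1776 nuclear matched regions (3.89%) and 14 of the 182 at an IDR of at most 0.05 (7.69%) had the summit inside such a gene. The gene table gives no strand, so whether a gene end is its start or its finish is not stated here.

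Genes that act with TOPLESS proteins or form related corepressors were read by the same window, in a list of 18. In replicate 1, 12 of 18 had a peak, beside the 44.0% of all coding genes, and in replicate 2, 7 of 18, beside 17.9%. A matched region was listed at 6 of 18, beside 9.67%, and at an IDR of at most 0.05 at 0 of 18, beside 0.805%. The replicate 1 peaks of LUG, AFP3, TMAC2 and BES1 had 2 summits each. For these the authors' deposited table carried the lower −log10 q. In replicate 1 this −log10 q was 4.46 in place of 5.26 at LUG and 2.35 in place of 8.35 at TMAC2. It was 6.55 in place of 13.7 at BES1 and 1.02 in place of 75.6 at AFP3. Whether the 0 of 18 would change with the higher −log10 q was not tested. AFP3, which belongs to a family that binds the abscisic acid factor ABI5, had the highest folds of these, with 4.96 in replicate 1 and 3.52 in replicate 2 at chr3:11383627-11384660. These folds exceeded those of every matched region of the TOPLESS genes, yet the IDR of AFP3 in the authors' deposited table was 0.449. Its relative TMAC2 had 1.96 and 2.18, with an IDR of 0.416. AFP1 had 2.36 and 1.39, with an IDR of 0.4275 and a −log10 q of 1.51 in replicate 2.

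LUG, a Groucho/Tup1-type corepressor of floral genes, had folds of 1.85 and 1.61, with a summit inside the gene near its end. SLK2, one of the SEUSS-like adaptors that partner LUG, had 1.35 and 1.50. BES1, a brassinosteroid transcription factor, had 2.44 and 1.59, and its relative BZR1, which recruits TPL, had peaks in both lists but no matched region. For LUG, SLK2 and BES1 alike, the authors' deposited table gave an IDR of 0.649, a value shared by many other matched regions. For LUG and BES1 it was listed with the lower −log10 q of 2 summits. HDA19, the histone deacetylase most often linked to TPL, had no peak in either list, and neither had SLK1, SLK3, SAP18, WUS and BDL. LUH, SEU, HDA6, NINJA and AFP2 had a peak in replicate 1 and none in replicate 2. The 0 of 18 depended on the window: with 3000 bp outside either end it was 1 of 18, beside 1.05% of all coding genes. AFP1 then had a region at chr1:26042794-26043465, with folds of 4.18 and 3.37, to which the authors' deposited table gave an IDR of 0.00139.

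The genes whose folds were most like those of the family were found by the distance between log2 folds over the 2 induced samples, among 2654 genes with a matched region. For TPL they were TIR1 (2.57 and 1.76) and, sharing a region, SD1-29 and AT1G61390 (2.56 and 1.74). For TPR1 they were AT5G12040, AT5G12043 and AT5G12050, which share a region with 2.17 and 2.28. For TPR2 they were AT3G16820, through the TPR2 region itself, and FAB1C and AT2G44000 with 3.12 and 1.697. For TPR3 they were AT5G63380 and AT5G63390 (2.59 and 2.07) and LCR32 (2.55 and 2.06). A likeness over 2 samples is loose, since many regions have folds in this range.

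The peaks of both replicates were called against the same control library, so any departure of that library at these places enters both lists. The files hold no read counts, so the depth is unknown and a fold has no counting interval.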

How the data were processed

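Peaks of each induced replicate were called with MACS2 2.2.7.1 against the uninduced ChIP, per the series' design text in the labels. Bowtie2 2.3.5.1, SAMtools 1.7, bcl2fastq 2.20 and TAIR10 are named in the submitters' processing notes. Each deposited list gives a score, a fold enrichment ratio and −log10 p and q values per summit, as the authors' caller wrote them. The authors' deposited table gives a scaled score, −log10 IDR values and a −log10 q per list, and no source used here gives the IDR version or settings. Its rows were joined to the peak lists by their intervals (1775 of 1784 rows were identical to a replicate 1 interval and 1747 to a replicate 2 interval, and the rest join neighbouring peaks). The fold of a region is that of its summit of highest −log10 q. Summits were assigned to gene spans of a RefSeq table of assembly TAIR10.1. The files name TAIR10, so none of its coordinates are printed and distances are given in classes only.

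No test was run: the peak lists give enrichment already set against the control and no value of the control itself, and the members and lists were chosen with earlier results of these data known. The rule for named genes took all members and their peaks, partners with a matched region, the nearest coding neighbours and the 3 genes of most similar fold, and partners without a matched region were named in addition after their values were seen. Window counting was checked on simulated summits. Alternatives covered the window, q and IDR limits, overlap rule, summit choice and each replicate. Promoter motifs and protein sequences were planned and not analysed here. Python 3.11.15, pandas 2.3.3, numpy 2.4.6 and matplotlib 3.10.9 were used.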

Additional observations from a re-analysis of the deposited data

How the results depend on the processing

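All counts of family genes were the same with flanks of 500, 1000 and 3000 bp and with the summit of highest −log10 q only. The counts of genes with a replicate 1 or a replicate 2 peak were the same with −log10 q of at least 2 and 5. The shares of all coding genes moved with these flanks. In that order they were 31.7%, 36.5% and 51.6% for replicate 1 peaks and 11.6%, 13.8% and 22.3% for replicate 2 peaks. Matched regions had 5.68%, 7.09% and 12.4%, and those at an IDR of at most 0.05 had 0.364%, 0.506% and 1.05%. Shares for the other q and IDR limits, summit choice and overlap rule are not given here. With the gene body only, replicate 1 peaks remained at 2 genes, replicate 2 peaks at 1, matched regions at 0 and those at an IDR of at most 0.05 at 0, since the matched summits lie outside the genes; all coding genes had 16.1%, 6.81%, 2.52% and 0.0875%. At an IDR of at most 0.01, 1 gene (TPR3) was left, and at 0.1 there were 3. Requiring an overlap of 50% of each interval gave 3 matched genes in place of 4, and without replicate 1 or without replicate 2 the list of the other replicate alone gave 5. Of the related genes, 3 had a matched region with the gene body only. With a flank of 3000 bp, 1 of the 18 had a region at an IDR of at most 0.05, beside 1.05% of all coding genes. It was AFP1, at chr1:26042794-26043465 with folds of 4.18 and 3.37. These alternatives for the related genes were added after seeing the data. Leaving out a replicate gave folds of 1.75 to 2.57 for TPL, 2.17 to 2.24 for TPR1, 1.68 to 3.10 for TPR2 and 2.07 to 2.57 for TPR3, and TPR2 moved most. No paired analysis was possible because the control group has 1 sample and its own values were not analysed here.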

Other observations

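The q-values in the authors' deposited table of matched regions depended on how many summits a region held. Where a region held several summits in a list, in 1 peak or in joined neighbouring peaks, the table carried the lowest −log10 q among them. This held in 526 of 526 such rows of replicate 1 and 275 of 275 of replicate 2 (within 0.001). Regions with 1 summit in a list carried the −log10 q of that summit. At TPL this gave −log10 q of 42.2 in place of 52.9 in replicate 1 and 15.1 in place of 15.3 in replicate 2. At TPR2 it gave 7.23 in place of 8.18 in replicate 2. TPR1 and TPR3 had single summits and kept their q.

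The difference was far larger at AFP3, where the replicate 1 peak had a summit with a −log10 q of 75.6 and another with 1.02. The authors' deposited table carried 1.02, beside 39.0 in replicate 2, and its IDR was 0.449. Over the whole table, 271 regions had a −log10 q lower than the highest among their summits by over 10 units in at least 1 list. Of these, 265 had an IDR over 0.05, beside 1602 of all 1784 regions. Regions with several summits in either list were 8 of the 182 at an IDR of at most 0.05 (4.40%) and 635 of the other 1602 (39.6%), and TPL is among the 8. An IDR from the summit of highest −log10 q of each peak was not computed here.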
